A study of Mus musculus with 12 samples.

Results

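PRDM16 and the histone mark H3K4me3 were set side by side at the ends of protein-coding genes, from 2 PRDM16 libraries and 3 H3K4me3 libraries among the 12 samples of the series. A PRDM16 region was a stretch covered by peaks of both PRDM16 libraries, and an H3K4me3 region a stretch covered in at least 2 of the 3 H3K4me3 libraries, each of at least 20 bases. Each protein-coding gene on chromosomes 1 to 19 was then classed by whether a region lay within 1 kb of either end of the annotated gene. Of 20665 genes, 9624 had both, 822 had PRDM16 only, 2184 had H3K4me3 only and 8035 had neither.

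PRDM16 is a zinc-finger transcription regulator with a PR domain, which is related to the SET domains of histone methyltransferases. It is best known for brown fat and craniofacial development, and in fat cells of mice it works with C/EBPβ and with CtBP co-repressors. H3K4me3, trimethylation of lysine 4 of histone H3, is laid down mainly by the SET1 and MLL complexes, which share the core subunits WDR5, RBBP5, ASH2L and DPY30. It marks the starts of active or poised genes. The CXXC1 subunit binds unmethylated CpG dinucleotides, and broad H3K4me3 domains are typical of genes that define a cell's identity.

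All groups were lung epithelial cells of wild-type C57Bl6 mice at E17.5, the stage at which the type 1 (AT1) and type 2 (AT2) cells of the alveoli form. Cells positive for the surface protein EpCAM were taken with magnetic beads, and each reaction held 100000 cells. CUT&RUN was used, in which an antibody guides a nuclease that cuts out nearby chromatin. PRDM16 replicate 1 used a rabbit antibody and PRDM16 replicate 2 a sheep antibody, so antibody and replicate cannot be told apart. The 3 H3K4me3 libraries used 1 rabbit antibody. Whether the replicates are separate pools of lungs is not stated in the labels, and the p-values below measure only the spread between these libraries. The 3 IgG samples were not analysed here, and no background library stands beside the peaks.

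The PRDM16 lists held 108677 and 77421 peaks on chromosomes 1 to 19, and the H3K4me3 lists 18538, 15057 and 14146. Of the PRDM16 peaks, 44.9% and 45.1% had a q-value under 0.05, against 100.0% of the H3K4me3 peaks in each library, so the PRDM16 lists hold many weak peaks. Each peak carries the authors' fold enrichment over background. Its scale differs between libraries, so it was turned into a percentile within its own library, with 100 the strongest. The sort was checked against marker lists. All 20 genes of an epithelial list had an H3K4me3 region, against 57.1% of all genes. Neither region lay at 10 of 18 endothelial, 13 of 18 immune and blood and 12 of 20 mesenchymal markers, against 38.9% of all genes. Ptprc, Cd68 and Csf1r were among the immune markers with neither. An H3K4me3 region did lay at 5 genes each of the endothelial, immune and mesenchymal lists, among them Flt1, Spi1 and Vim.

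The promoters below show the kinds of sequence that carried each combination of marks. They run from 250 bases before to 50 bases after a RefSeq transcript start on GRCm38.p6, 5′ to 3′, with every CpG in capitals. They are the first genes in the orders of the named genes, described further on, whose RefSeq start lay within 1 kb of the annotated gene end and whose window lay over the regions that define the class. Those 2 conditions were set after the values were seen, since the first entries for Tmprss2, Fat1 and Fbxl19 lay farther from the gene end and that of Liph lay beside its PRDM16 region. Slc25a28, a mitochondrial iron carrier (chr19:43674832-43675131, minus strand), and Tnrc6b, a subunit of the microRNA silencing machinery (chr15:80711063-80711362, plus strand), had both regions over the window. Scgb1c1, a secretoglobin gene (chr7:140845315-140845614, plus strand), and Snai1, a repressor of epithelial genes (chr2:167537945-167538244, plus strand), had a PRDM16 region only. Bmp4, a bone morphogenetic protein ligand (chr14:46390620-46390919, minus strand), and Lfng, a glycosyltransferase that modifies Notch receptors (chr5:140607091-140607390, plus strand), had an H3K4me3 region only over the window.
Slc25a28: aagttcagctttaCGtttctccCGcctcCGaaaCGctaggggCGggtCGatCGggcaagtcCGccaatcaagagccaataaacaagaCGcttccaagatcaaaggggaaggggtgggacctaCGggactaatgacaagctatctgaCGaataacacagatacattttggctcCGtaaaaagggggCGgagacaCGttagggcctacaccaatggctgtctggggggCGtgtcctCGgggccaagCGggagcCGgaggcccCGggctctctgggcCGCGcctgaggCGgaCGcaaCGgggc
Tnrc6b: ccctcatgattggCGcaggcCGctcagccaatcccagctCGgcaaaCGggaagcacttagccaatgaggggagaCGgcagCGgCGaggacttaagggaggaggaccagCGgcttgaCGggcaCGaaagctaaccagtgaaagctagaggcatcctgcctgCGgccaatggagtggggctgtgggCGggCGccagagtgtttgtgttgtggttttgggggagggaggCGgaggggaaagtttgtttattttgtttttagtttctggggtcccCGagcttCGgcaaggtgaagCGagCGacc
Scgb1c1: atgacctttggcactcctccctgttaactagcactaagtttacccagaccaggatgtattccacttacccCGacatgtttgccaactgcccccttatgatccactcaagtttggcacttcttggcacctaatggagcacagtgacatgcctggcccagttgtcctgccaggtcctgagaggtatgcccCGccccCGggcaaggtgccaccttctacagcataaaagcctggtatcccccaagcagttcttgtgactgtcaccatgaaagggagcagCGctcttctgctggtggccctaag
Snai1: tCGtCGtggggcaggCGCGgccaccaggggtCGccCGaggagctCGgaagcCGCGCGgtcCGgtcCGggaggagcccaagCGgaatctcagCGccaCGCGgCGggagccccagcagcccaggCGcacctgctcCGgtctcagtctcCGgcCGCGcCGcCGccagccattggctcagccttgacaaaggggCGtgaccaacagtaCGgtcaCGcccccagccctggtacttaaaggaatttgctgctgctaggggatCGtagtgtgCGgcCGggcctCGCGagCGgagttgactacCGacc
Bmp4: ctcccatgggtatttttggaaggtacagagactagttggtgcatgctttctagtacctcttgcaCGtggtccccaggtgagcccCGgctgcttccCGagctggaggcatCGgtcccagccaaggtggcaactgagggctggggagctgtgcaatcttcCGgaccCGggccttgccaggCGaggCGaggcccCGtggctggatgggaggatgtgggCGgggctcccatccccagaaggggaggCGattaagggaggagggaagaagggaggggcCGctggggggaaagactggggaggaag
Lfng: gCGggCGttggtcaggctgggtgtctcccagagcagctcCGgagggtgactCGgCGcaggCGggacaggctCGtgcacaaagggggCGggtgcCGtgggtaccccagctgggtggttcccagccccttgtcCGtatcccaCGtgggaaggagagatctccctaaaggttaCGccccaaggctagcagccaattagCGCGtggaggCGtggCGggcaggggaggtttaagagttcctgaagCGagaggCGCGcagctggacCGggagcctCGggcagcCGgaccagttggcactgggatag

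The Slc25a28 and Tnrc6b windows held 24 and 18 CpGs. The Scgb1c1 window held 4 CpGs and the Snai1 window 34, so genes with PRDM16 only ranged from CpG-poor to CpG-rich. The Bmp4 window held 12 CpGs and the Lfng window 22.

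PRDM16 and H3K4me3 mostly stood at the same genes. A PRDM16 region lay at the ends of 10446 genes (50.5% of all), and 9624 of these also had H3K4me3 (46.6% of all genes). PRDM16 without H3K4me3 was the smallest class (822 genes, 3.98%). H3K4me3 without PRDM16 was found at 2184 genes (10.6%), and 8035 genes had neither (38.9%). In all 57.1% of genes had an H3K4me3 region. These shares are the background for every gene list below. In 9425 of the genes with both (97.9%), a PRDM16 region overlapped an H3K4me3 region, so the marks rarely stood at opposite ends.

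The classes depend on how strictly PRDM16 is called. Of the genes with H3K4me3 only, 71.3% had a peak of PRDM16 replicate 1 at their ends and 33.1% one of replicate 2, against 65.0% and 57.9% of all genes. Just 282 of them (12.9%) had no peak in either PRDM16 library. With replicate 1 alone as the PRDM16 set, 627 genes had H3K4me3 only, and with replicate 2 alone 1461. When PRDM16 peaks had to reach a −log10 q of 5, the class of both held 4224 genes, that of PRDM16 only 101 and that of H3K4me3 only 7584.

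The class of PRDM16 only leaves out genes with an H3K4me3 region covered in 2 libraries, but not those with a peak in 1. No H3K4me3 library had a peak at the ends of 532 of them (64.7%), and 284 had a peak in 1 library. Over all genes, 60.2%, 57.3% and 55.7% had a peak in the single H3K4me3 libraries. The nearest H3K4me3 region lay a median of 18613 bases from their ends, and 22 genes had a PRDM16 region that reached into an H3K4me3 region. In 246 of the 822 genes (29.9%) the PRDM16 region overlapped an H3K4me3 peak of at least 1 library. For genes with H3K4me3 only, the nearest PRDM16 region lay a median of 9637 bases from the ends. These distances were not compared, since there were 38668 PRDM16 regions and 15019 H3K4me3 regions. In 229 of these 2184 genes (10.5%) the H3K4me3 region itself held a PRDM16 region farther than 1 kb from the gene end. At the 1 kb limit, 123 genes had their nearest PRDM16 region in the last 100 bases inside it and 100 genes in the first 100 bases beyond it. For H3K4me3 these were 70 and 62 genes.

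Annotated gene ends are not always the starts in use. Among genes with strand known from RefSeq promoters, PRDM16 lay at the 5′ end in 97.1% of the genes with both, and at the 3′ end alone in 28.1% of the genes with PRDM16 only. Counting only 5′ ends left 462 genes with PRDM16 only. When every RefSeq transcript start replaced the gene ends, 95.2% of the 7754 genes with both that had an entry stayed in that class. Of the 613 genes with PRDM16 only, 56.6% stayed, 13.2% had both and 29.2% had neither. A neighbouring protein-coding gene had an end within 1 kb in 37.3% of the genes with both, 18.6% of those with PRDM16 only, 31.5% of those with H3K4me3 only, 10.7% of those with neither and 25.6% of all genes. A region at such ends cannot be given to 1 gene.

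PRDM16 peaks were spread over the genome while H3K4me3 peaks were concentrated at gene ends. In the PRDM16 libraries 14.7% and 17.7% of peaks lay within 1 kb of a gene end, against 62.1%, 70.6% and 72.9% in the H3K4me3 libraries. The groups did not overlap, with a difference of −52.4 percentage points. The two-sided exact permutation test over libraries gave p = 0.2, the smallest that 2 against 3 libraries allow, and 0.25 after Benjamini-Hochberg adjustment over 9 tests. Restricted to a −log10 q of 5 or more in every library, the difference was −30.6 points, in the same direction.

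PRDM16 peaks were also narrower. Their median width was 402 and 397 bases in the PRDM16 libraries, against 1392, 1443 and 1358 bases in the H3K4me3 libraries (exact permutation p = 0.2, adjusted 0.25). At equal stringency (−log10 q of 5 or more in every library) the difference of −998 bases became −457 bases.

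The marks met more often at gene ends than elsewhere. Of 10879 PRDM16 regions at gene ends, 85.2% overlapped an H3K4me3 region (Wilson 95% interval 84.5% to 85.8%, counting error only), against 15.3% of the 27789 elsewhere. Of 10652 H3K4me3 regions at gene ends, 79.6% overlapped a PRDM16 region (78.9% to 80.4%), and of the 4367 elsewhere 65.6% did. The share at gene ends was 76.8%, 79.6% and 80.6% for the peaks of the 3 H3K4me3 libraries taken singly. It was 34.1% when PRDM16 peaks had to reach a −log10 q of 5. The regions elsewhere were narrower, with medians of 790 against 1630 bases for H3K4me3 and 370 against 551 for PRDM16. The part of width in these shares was not tested.

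H3K4me3 was wider at genes that also had PRDM16. In the 3 H3K4me3 libraries the median peak width was 2098, 1842 and 1706.5 bases at genes with both, against 1507, 1269 and 1204 bases at genes with H3K4me3 only. The mean difference was 555.5 bases, in the same direction in 3 of 3 libraries. An exact sign-flip test gave p = 0.25, the smallest that 3 libraries allow. By its peak names H3K4me3 replicate 1 belongs to the same series of libraries as both PRDM16 libraries, and H3K4me3 replicates 2 and 3 to another. The direction held in each series. The quartile ranges of the classes overlapped in each library, so the width of a single gene did not tell its class. H3K4me3 was also stronger, with a median percentile over genes that averaged 67.1 ± 3.48 over libraries at genes with both and 51.2 ± 6.12 at genes with H3K4me3 only (SD, n = 3 libraries). The difference of 15.9 points had the same sign in each library (exact p = 0.25, adjusted 0.25).

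**Figure D1:**
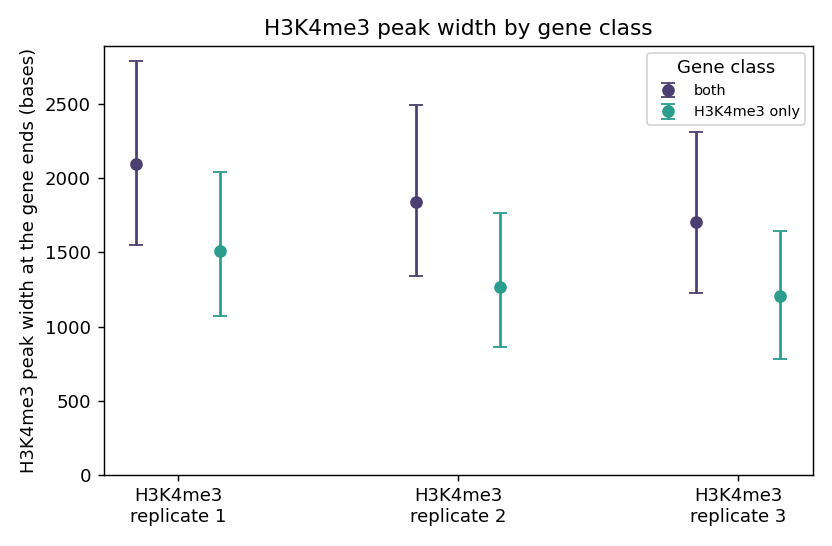
Median H3K4me3 peak width in bases (points) with the quartile range over genes (bars) in each H3K4me3 library, for genes with both marks and genes with H3K4me3 only. In each of the 3 libraries the median of the genes with both is higher, and the quartile ranges overlap.

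The 229 genes whose H3K4me3 region held PRDM16 away from the gene end had wider regions than the rest of the H3K4me3 only class. Their median region width was 2202 bases, against 1199 bases for the other 1955 genes of that class. Such a region has to reach farther than 1 kb from the gene end, so the definition itself favours wide regions. The widest gene with no PRDM16 region inside was Skida1, at 6020 bases.

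The share of H3K4me3 regions that met PRDM16 climbed with their width, but the density of PRDM16 along them did not. When the 10652 H3K4me3 regions at gene ends were split into 10 groups by width, 46.2% of the narrowest group (median 453 bases) and 97.7% of the widest group (median 3740.5 bases) overlapped PRDM16. A wide region has more bases on which an overlap can fall, so the density along the region and a window of equal size were set beside this. PRDM16 regions covered 31.3% of the bases in the narrowest group and 33.2% in the widest, and between 29.8% and 34.7% in all 10. The central 300 bases lay over a PRDM16 region in 45.1% of the narrowest group, in 66.3% of the seventh group (median 1968 bases) and in 46.1% of the widest. This window had the same length at every width, so it reached past the ends of regions under 300 bases.

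**Figure D2:**
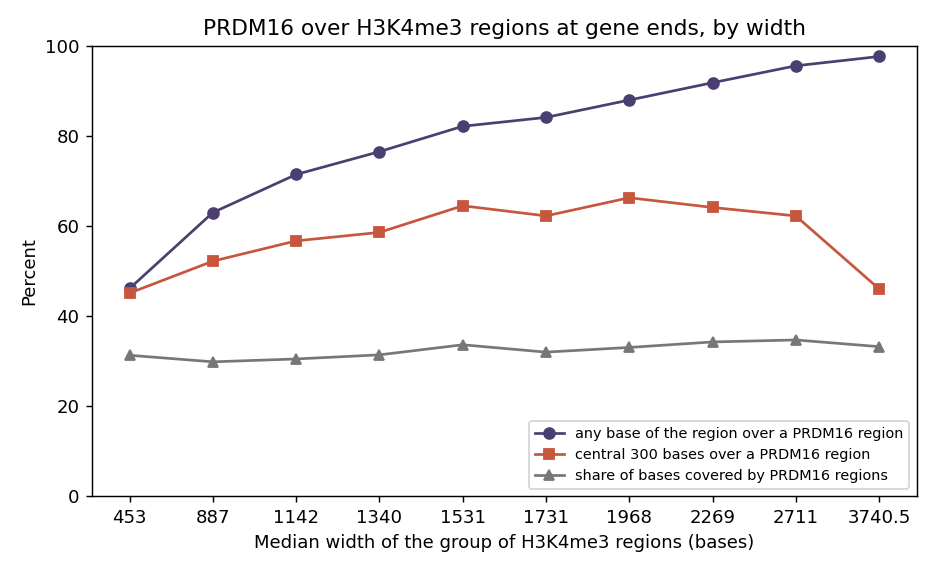
H3K4me3 regions at gene ends in 10 groups of about equal size, from narrow to wide, with the median width in bases on the horizontal axis and percent on the vertical axis. The share with any overlap climbs from 46.2% to 97.7%, the share with PRDM16 over the central 300 bases peaks at 66.3% in the seventh group, and the share of bases covered stays between 29.8% and 34.7%.

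The broadest regions mostly held more than 1 PRDM16 region. Of 373 H3K4me3 regions of 4000 to 8000 bases, 98.4% overlapped PRDM16, with a median of 2 PRDM16 regions, and 64.1% held 2 or more. All 26 regions of at least 8000 bases did so, with a median of 4 and at most 6, and 96.2% held 2 or more. Of the 2030 regions under 1000 bases 53.5% overlapped, nearly always with a single PRDM16 region.

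PRDM16 strength followed H3K4me3 width only weakly. Over the 9624 genes with both, the mean PRDM16 percentile had a Spearman correlation of 0.234 with H3K4me3 width. The correlation was 0.224 with replicate 1 and 0.165 with replicate 2, and the 6 pairs of single libraries gave 0.149 to 0.225. It was 0.226 over the 7823 genes with 1 PRDM16 region at their ends. The genes share libraries and chromatin, so these values describe the lists and carry no p. Among stronger peaks alone it was smaller. At a −log10 q of 5 or more it was 0.0089 over 4224 genes, and with 20000 top-ranked PRDM16 peaks per library 0.0954.

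For scale, the percentiles of the 2 PRDM16 libraries correlated at 0.299 with each other over the same genes. H3K4me3 strength correlated with its own width at 0.639. Within 3 equal groups of genes from low to high H3K4me3 strength, the correlation of PRDM16 percentile with width was 0.214, 0.182 and 0.20. The median H3K4me3 width was 1560.5 bases in the lowest of 4 equal groups of genes by PRDM16 percentile, then 1797, 1939 and 2086 bases in the higher ones.

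PRDM16 itself was stronger where H3K4me3 was present. Its median percentile was 90.8 at genes with both and 75.5 at genes with PRDM16 only in replicate 1, and 81.5 against 65.9 in replicate 2. The mean difference was 15.4 points, with no test between 2 libraries. When PRDM16 peaks had to reach a −log10 q of 5, it was −0.14 points.

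The strongest summits of the marks stood at different places around the start. At genes with both, 45.5% and 44.3% of PRDM16 summits lay within 150 bases of the RefSeq start, against 19.6%, 18% and 18.2% of H3K4me3 summits (exact permutation p = 0.2, adjusted 0.25). The median PRDM16 summit was at −11 and 12 bases. The median H3K4me3 summit was 235, 222 and 218 bases downstream. More than 150 bases downstream lay 25.1% and 27.4% of PRDM16 summits and 65.3%, 67.5% and 67.5% of H3K4me3 summits. The groups of libraries did not overlap in either share, and each library covered 7413 to 7546 genes.

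**Figure D3:**
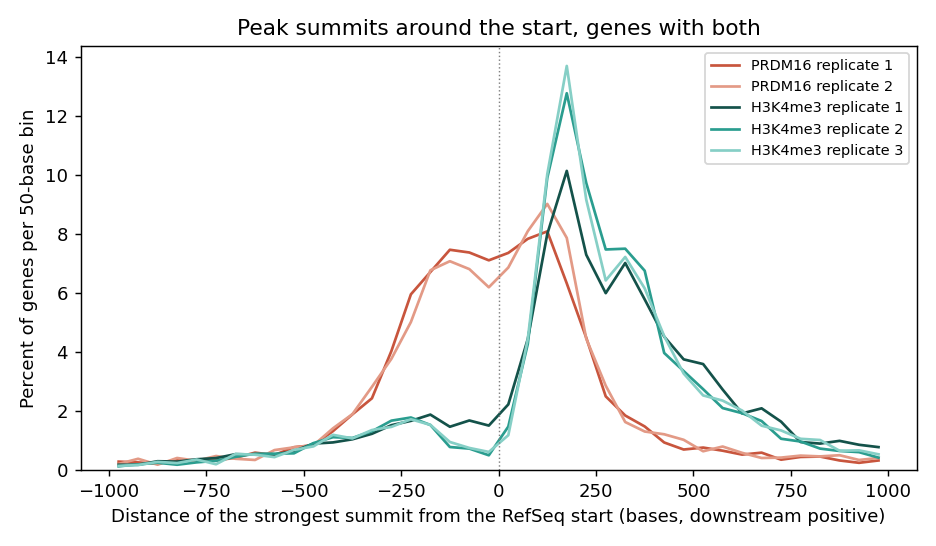
Distance in bases of each library's strongest summit from the RefSeq start (downstream positive) at genes with both marks, as percent of genes per 50-base bin. The PRDM16 curves are broad around the start, with medians near it and the highest bin centred 125 bases downstream (8.10% and 9.03%). In the bin centred at −25 bases they hold 7.12% and 6.20%. The H3K4me3 curves peak downstream of the start, with medians of 218 to 235 bases.

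Promoters of the 4 classes differed in base composition. The CpG observed over expected ratio of the 300-base window had a median of 0.796 at genes with both, 0.373 with PRDM16 only, 0.715 with H3K4me3 only and 0.2 with neither, against 0.597 over all 16457 promoters. The CpG-rich share (ratio over 0.6 and G+C over 50%) was 75.3%, 27.4%, 59.8% and 11% in that order, against 47.0% over all promoters. The medians barely moved for promoters whose start lay within 1 kb of the gene end, at 0.803, 0.355, 0.714 and 0.183. Genes with PRDM16 only lay between those with H3K4me3 and those with neither. A window need not lie over the region that classed its gene. A PRDM16 region lay over 84.4% of the windows with both but 41.1% of those with PRDM16 only, against 43.5% of all windows. The promoters of Scgb1c1 (ratio 0.187) and Snai1 (0.925) printed above are examples from the low and the high side.

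**Figure D4:**
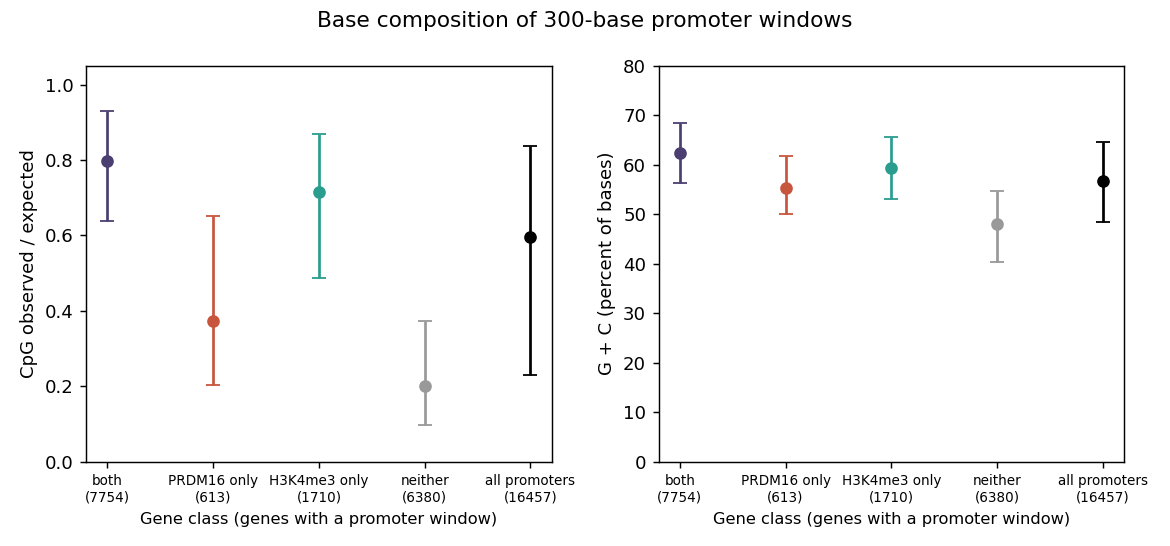
CpG observed over expected ratio (left) and G+C in percent (right) of the 300-base promoter windows, as median (points) and quartile range (bars), by gene class with the number of windows in brackets. Genes with both have the highest median ratio (0.796), and genes with PRDM16 only (0.373) lie below those with H3K4me3 only (0.715).

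CpG content moved with both marks. Across 5 groups of promoters from low to high CpG ratio, the share of H3K4me3 genes that also had PRDM16 was 66.2%, 70.1%, 79.4%, 83.7% and 86.9%. Median H3K4me3 width was 1417, 1320, 1496, 1728 and 2011 bases in the same groups. The part of base composition in the difference in H3K4me3 width between the classes was not tested.

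Short motifs were counted on both strands of the same windows. With PRDM16 only, most of these windows did not lie over a PRDM16 region. AAGATAA and AGATGAG are cores of the motifs known for the zinc fingers of PRDM3, the close relative of PRDM16. The first stood in 1.5% of promoters with both, 4.24% with PRDM16 only, 1.70% with H3K4me3 only and 5.13% with neither, against 3.03% of all promoters. The second stood in 2.63%, 5.87%, 3.04% and 5.30%, against 3.83% of all. AAGATAA is rich in A and T. Both motifs were most frequent with PRDM16 only and with neither, the classes of lowest median G+C (55.3% and 48.0%). AGATGAG was more frequent with PRDM16 only than with neither. The part of base composition in these shares was not tested.

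The ETS core CCGGAAG went the other way, in 18.7% of promoters with both, 4.57% with PRDM16 only, 19.8% with H3K4me3 only and 3.17% with neither (12.3% of all). CAAGTG, the core bound by NKX2-1, stood in 9.89%, 14.7%, 12.2% and 16.1% (12.7% of all). TATAAA stood in 6.37%, 11.4%, 6.55% and 24.3% (13.5% of all). Each motif was counted on its own, a window may hold several, and AAGATAA and AGATGAG share the letters AGAT. A match is a description of letters, not a bound site.

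The genes with both and the strongest PRDM16 peaks did not have the broadest H3K4me3. Fbxl19, whose product binds CpG-rich DNA, led with PRDM16 fold enrichments of 26.8 and 20.04 and H3K4me3 fold enrichments of 29.7, 55.0 and 57. Its H3K4me3 region was 3257 bases wide. Slc25a28 had PRDM16 folds of 30.5 and 15.0 and an H3K4me3 region of 2786 bases, and Tnrc6b had 23.6 and 16.8 and 2114 bases. Narrow H3K4me3 stood beside strong PRDM16 at other leading genes. Mmp28, a matrix metalloproteinase, had PRDM16 folds of 53.8 and 14.0 with an H3K4me3 region of 723 bases. That H3K4me3 region lay over a PRDM16 region at the 3′ end of Mmp28, and both marks also lay at its 5′ end. Snapin, a subunit of lysosome-positioning and vesicle machinery, had PRDM16 folds of 22.4 and 16.9 with an H3K4me3 region of 861 bases. Rhebl1, a Rheb-like GTPase, and the Hedgehog ligand gene Dhh shared 1 PRDM16 region (folds 22.9 and 17.8), which lay at the 3′ end of Dhh, so it counts once. Pkd2l1, a polycystin-like channel, completed the 8, with folds of 21.7 and 15.5 and an H3K4me3 region of 3124 bases. The regions of Fbxl19 and Pkd2l1 fell in the widest of the 10 width groups, which began at 3057 bases.

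Among genes with both, the 5 named for the widest H3K4me3 were transcription factor genes of lung epithelium and foregut. They were picked from genes with PRDM16, so its presence there is no result. The widest region of a gene with H3K4me3 only measured 6030 bases. The region at Nkx2-1, which encodes the factor that specifies lung epithelium, measured 21051 bases (chr12:56518121-56539171). It was 21616, 21051 and 20023 bases wide in the 3 libraries and held 6 PRDM16 regions. The PRDM16 peak at the 5′ end of Nkx2-1 was weak, with folds of 2.52 and 3.91 and a mean percentile of 50.0. This was the lowest percentile among the 5 widest genes. Irx5 and Irx2, Iroquois homeobox genes, had regions of 15961 and 14143 bases with mean PRDM16 percentiles of 95.1 and 91.0. Foxa2, a pioneer factor of foregut epithelium, had 12332 bases and a percentile of 97.8, and Gata6, a factor of distal lung epithelium, had 11847 bases and 87.7.

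H3K4me3 only at the gene ends did not always mean a region without PRDM16. Among the 5 widest were Skida1 (6020 bases), Bmp4 (5939), Fat1 (5910), an atypical cadherin, and Lfng (5803). The H3K4me3 regions of Bmp4, Fat1 and Lfng held 3, 2 and 1 PRDM16 regions, all farther than 1 kb from the gene ends. Skida1 held 0, and its nearest PRDM16 region lay 7955 bases away. Yap1, the effector of the Hippo pathway, was a clearer case, with H3K4me3 folds of 23.6, 73.6 and 68.7, a region of 3118 bases and the nearest PRDM16 region 29437 bases away.

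PRDM16 without H3K4me3 was led by a mixed set of genes. Faim2, an inhibitor of Fas signalling (PRDM16 folds 21.0 and 11.7), and Fgf1, a fibroblast growth factor (21.7 and 10.2), had their nearest H3K4me3 regions 22027 and 24487 bases away. Liph, a phospholipase that makes lysophosphatidic acid, had folds of 15.5 and 14.1 in a PRDM16 region at chr16:21995885-21997429, and the nearest H3K4me3 region lay 6140 bases from the gene. Scgb1c1 had 14.3 and 11.5, and Snai1 had 14.3 and 6.51.

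For others the class rested on which annotated end was read. Tmprss2, a serine protease of airway and alveolar epithelium, had PRDM16 folds of 14.0 and 18.7 at its annotated 5′ end but both marks at a RefSeq start inside the gene. Poc1a, a centriole protein gene (17.1 and 9.32), and Rab3il1, an exchange factor for Rab proteins (10.5 and 23.9), also had both marks at RefSeq starts. The PRDM16 region of Rab3il1 and that of Hmcn2, a hemicentin (13.3 and 9.33), lay at 3′ ends. Liph and Scgb1c1 had PRDM16 only by both readings.

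Genes of the alveolar epithelium had both marks. Of 24 AT1 genes 20 had both, 0 had PRDM16 only, 1 had H3K4me3 only and 3 had neither. Gprc5a, a retinoic acid-induced receptor (PRDM16 folds 19.3 and 13.7), and Cav1, the caveolar coat protein (14.2 and 8.23), had the strongest PRDM16. Of 22 AT2 genes 17 had both, 0 had PRDM16 only, 1 had H3K4me3 only and 4 had neither. Sftpb, a surfactant protein (17.9 and 8.80), and Fabp5, a fatty acid-binding protein (11.5 and 10.3), led this list, and Sftpa1, Sftpc and Sftpd also had both. Against 46.6% over all genes these shares were high, and the lists were chosen with earlier results of these data known. Cldn18 and Clic5 of the AT1 list had neither mark at the gene ends but both at RefSeq starts. Scnn1b and Il33 had H3K4me3 regions of only 243 and 257 bases.

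Lung epithelial transcription factors had the widest H3K4me3 of any list of 10 or more genes with the mark, with a median of 5216 bases, against 1721 bases over all genes with H3K4me3. Of 27, 22 had both, 3 had H3K4me3 only, among them Ehf and Yap1, and 2 had neither (Elf5 and Nfia). At RefSeq starts Elf5 had both marks and Nfia neither. Klf5, which controls alveolar cell fate, had PRDM16 folds of 10.3 and 11.5 and an H3K4me3 region of 3927 bases. Of 20 general epithelial genes 19 had both, among them Epcam, Cdh1 and Krt8. Tjp1 had H3K4me3 only at its ends but both marks at RefSeq starts. Esrp1, an epithelial splicing regulator, had PRDM16 folds of 18.6 and 11.7, and Prss8, a membrane serine protease, 15.1 and 10.1. In these 4 lists no gene had PRDM16 only.

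Markers of cells that the sort should remove divided otherwise. Of 20 mesenchymal genes 2 had both (Col1a1 and Vim), 3 had PRDM16 only (Acta2, Myh11 and Pdgfra), 3 had H3K4me3 only and 12 had neither. Of 18 endothelial genes the counts were 4, 3, 1 and 10, and of 17 neuronal genes 2, 3, 1 and 11. PRDM16 at the genes with PRDM16 only was of middle strength, with folds of 4.30 and 3.12 at Acta2 and 4.30 and 4.45 at Erg. H3K4me3 at Col1a2 and Twist1 was weak, with folds of 8.23, 7.30 and 11 at Col1a2. In Twist1 it was called in 2 libraries, with 7.86 and 4.06. Immune and blood genes had 3 with both, 0 with PRDM16 only, 2 with H3K4me3 only and 13 with neither. Of 18 liver genes 1 had both, 2 had PRDM16 only, 0 had H3K4me3 only and 15 had neither. Fewer contaminating cells and a weaker mark per cell cannot be told apart in these bulk libraries.

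**Figure D5:**
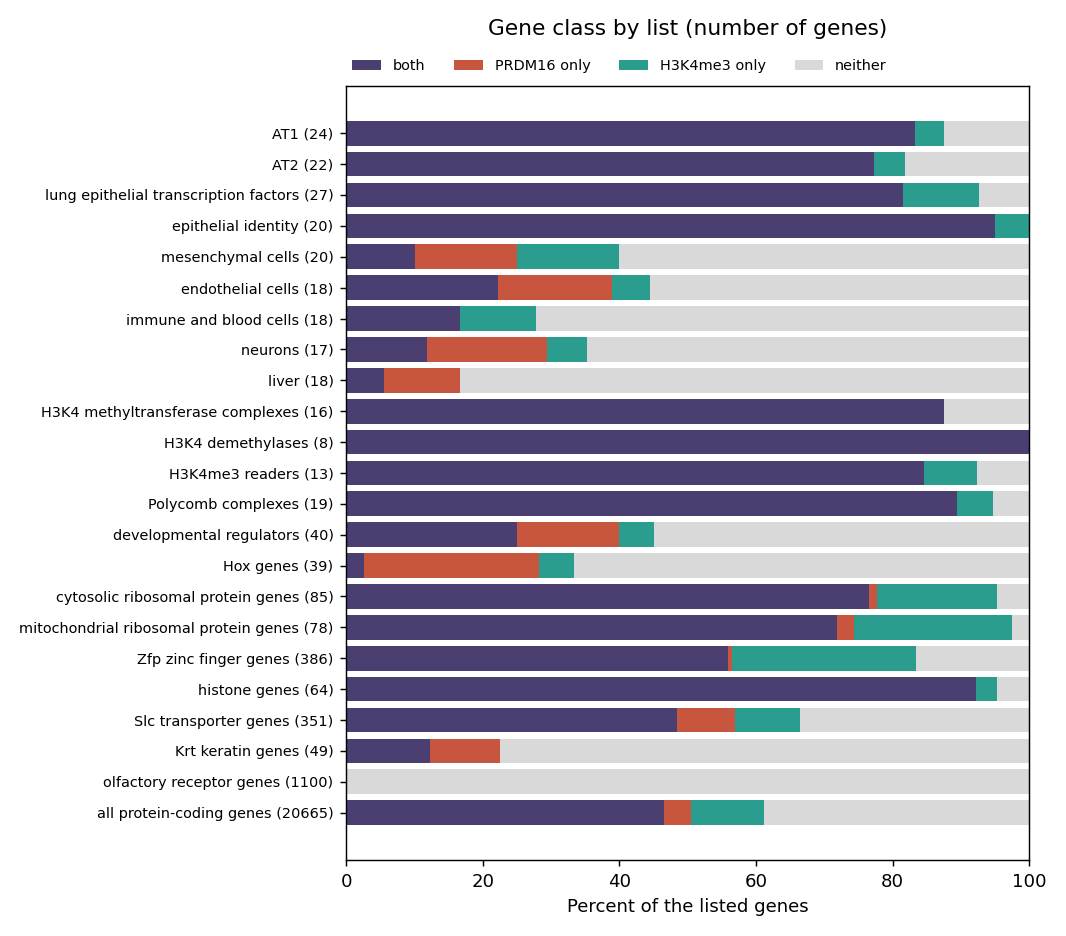
Percent of the genes of each list (rows, number of genes in brackets) with both marks, PRDM16 only, H3K4me3 only or neither, with all protein-coding genes at the bottom. Epithelial lists and histone-modifier lists are mostly both, and PRDM16 only is highest among Hox genes (25.6%).

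Most genes for writers of H3K4 methylation, for demethylases and for readers of H3K4me3 had both. Of 16 genes of the H3K4 methyltransferase complexes 14 had both and 2 had neither. Setd1b had the widest region, of 10125 bases, with PRDM16 folds of 8.63 and 7.15. Kmt2b had PRDM16 folds of 17.1 and 3.43, and Kmt2a, Kmt2c and Kmt2d had 10.8 and 4.15, 7.70 and 3.51, and 10.2 and 3.70. The PRDM16 regions within 1 kb of the ends of Kmt2d and Men1 lay at the 3′ end only. The H3K4me3 region of 4711 bases at the 5′ end of Kmt2d overlapped 1 PRDM16 region beyond 1 kb. Ash2l and Dpy30 had neither, with the nearest H3K4me3 regions 5610 and 2891 bases from the annotated ends, and Dpy30 had both marks at RefSeq starts. In the other direction, Men1 had H3K4me3 only and Ncoa6 had neither mark at RefSeq starts, though both genes had both marks at their ends. Of 8 H3K4 demethylase and co-repressor genes 8 had both. The list joins Kdm5a and Kdm5b, which act on H3K4me3, with Kdm1a and Kdm1b, which act on mono- and dimethylated H3K4, and with the co-repressor genes Hdac1, Hdac2, Rcor1 and Phf21a. Kdm1b (PRDM16 folds 8.76 and 9.27) and Kdm1a (9.06 and 5.47) had the strongest PRDM16, and Kdm5b the weakest (3.61 and 2.28). Of 13 genes for readers of the mark 11 had both, 1 had H3K4me3 only (Phf2) and 1 had neither (Spin1). Spin1 had both marks at RefSeq starts. Ing1 led with PRDM16 folds of 15.9 and 10.6. Of 19 Polycomb genes 17 had both, and Cbx7 had neither at its ends but both at RefSeq starts.

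PRDM16 regions lay at its own gene and at that of PRDM3. Prdm16 had PRDM16 folds of 16.2 and 9.80, a mean percentile of 98.5 and an H3K4me3 region of 9029 bases that held 4 PRDM16 regions (chr4:154630925-154639953). Mecom, which encodes PRDM3, had folds of 17.2 and 4.79 and an H3K4me3 region of 6496 bases. The H3K4me3 widths of Mecom were 12610, 6496 and 6042 bases, so replicate 1 stood apart. Of 15 PRDM genes 9 had both, 1 had PRDM16 only (Prdm12, at its 3′ end), 2 had H3K4me3 only, among them Prdm8, and 3 had neither (Prdm10, Prdm13 and Prdm14). Prdm10 had both marks at RefSeq starts, while Prdm8 and Prdm12 had neither there. The H3K4me3 region of Prdm8 overlapped 2 PRDM16 regions beyond 1 kb.

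Known partners and brown fat targets of PRDM16 were split. Of 17, 12 had both, 1 had PRDM16 only, 1 had H3K4me3 only and 3 had neither. Cebpb had PRDM16 folds of 8.48 and 8.88, and encodes a factor of fat cell formation. Zfp516, a brown fat factor, had a PRDM16 region with folds of 7.33 and 10.2 at one end of the gene, and its H3K4me3 region of 8626 bases, which held 4 other PRDM16 regions, lay at the opposite end. Ebf2, a factor of brown fat precursors, had PRDM16 only, with folds of 10.0 and 8.84 and the nearest H3K4me3 region 44031 bases from its ends. Pparg, the master regulator of fat cells, had H3K4me3 only. Ucp1, Cox8b and Dio2 had neither.

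Developmental regulators of other organs had PRDM16 only more often than all genes did (15% against 3.98%), in counts that were not tested. This was not particular to them. The share was 15% of mesenchymal, 16.7% of endothelial and 17.6% of neuronal genes, though 11.1% of liver and 0% of immune and blood genes. Of 40 such regulators 10 had both, 6 had PRDM16 only, 2 had H3K4me3 only and 22 had neither. Nkx2-2, a homeobox gene of neural tube and pancreas, had PRDM16 folds of 29.4 and 4.45 with the nearest H3K4me3 region 161591 bases away. PRDM16 lay at both its 5′ and 3′ ends, with a region of only 106 bases near the 3′ end. At RefSeq starts Nkx2-2 had neither mark. Dlx2, a homeobox gene of forebrain and face, had PRDM16 folds of 7.17 and 8.02. Of 39 Hox genes 1 had both, 10 had PRDM16 only, 2 had H3K4me3 only and 26 had neither. That is 25.6% of Hox genes with PRDM16 only, against 3.98% of all genes. The H3K4me3 regions of the 3 Hox genes that had one measured 315 to 1311 bases.

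Gene families used in every cell were mostly in the class of both. Families were taken by symbol, so single members may not belong. Of 85 cytosolic ribosomal protein genes 65 had both, 1 had PRDM16 only, 15 had H3K4me3 only and 4 had neither. Of 78 mitochondrial ribosomal protein genes the counts were 56, 2, 18 and 2, and of 38 proteasome genes 27, 0, 8 and 3. Histone genes had the highest PRDM16 share of any family of over 50 genes, with 59 of 64 having both, and a median H3K4me3 width of 3740 bases. They lie in clusters, so 1 region can reach several genes.

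Zinc finger genes of the Zfp series had H3K4me3 without PRDM16 more often than all genes (104 of 386, 26.9%, against 10.6%), and the difference was not tested. Of the 386, 216 had both, 2 had PRDM16 only, 104 had H3K4me3 only and 64 had neither. Among those with H3K4me3, 67.5% had PRDM16, against 81.5% of all genes with the mark. Solute carrier genes were spread over all classes, with 170 of 351 having both, 30 having PRDM16 only (8.55%), 33 having H3K4me3 only and 118 having neither. Of 1100 olfactory receptor genes 0 had both, 2 had PRDM16 only and 1098 had neither, and of 352 vomeronasal receptor genes 2 had both and 350 had neither. Of 49 keratin genes 6 had both, namely the simple-epithelium keratins Krt7, Krt8, Krt18 and Krt19, and also Krt1 and Krt10. PRDM16 only was found at 5 (10.2%), Krt13, Krt77, Krt79, Krt80 and Krt86, while 0 had H3K4me3 only and 38 had neither.

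NKX2-1 peaks followed the same order of classes. In the 3 NKX2-1 libraries 96.9%, 71.7% and 82.0% of genes with both had a peak at the ends. The shares were 62.5%, 20.9% and 24.8% with PRDM16 only, 78.2%, 40.4% and 53.4% with H3K4me3 only, and 8.80%, 9.23% and 10.6% with neither. Over all genes they were 59.3%, 42.1% and 49.0%. Genes with both exceeded genes with PRDM16 only by 47.5 points on average, and genes with H3K4me3 only by 26.3 points. Each difference had the same sign in 3 of 3 libraries (exact sign-flip p = 0.25, the smallest possible). Within the first series of peak names, to which both PRDM16 libraries and NKX2-1 replicate 1 belong, the differences were 34.4 and 18.8 points. The PRDM3 library had a peak at 86.6% of genes with both, 42.5% with PRDM16 only, 51.7% with H3K4me3 only and 5.80% with neither, against 49.7% of all genes, with no replicate.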

How the data were processed

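Peak lists of 2 PRDM16 and 3 H3K4me3 CUT&RUN libraries were compared, with 3 NKX2-1 lists and 1 PRDM3 list beside them. Groups, replicate numbers and antibodies came from the labels. Per the submitters' processing notes, the tools were Trimmomatic, Bowtie2, MACS2 and HOMER, on mm10. Their versions, settings and any control library are not given in the sources used here. In all, the authors deposited 1 list per sample, each peak with a fold enrichment (a ratio), −log10 p and −log10 q values and a score. Read depth is unknown from these lists, and no interval needs it. Wilson intervals treat regions as the counted units and hold counting error alone.

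The fold enrichment was ranked within each library over chromosomes 1 to 19, and per gene the highest peak over its regions was used. Genes and promoters were those of RefSeq on GRCm38.p6, the assembly of mm10. Of 20665 genes 16457 had a promoter window and strand. Libraries were compared with exact two-sided permutation or sign-flip tests, adjusted with the Benjamini-Hochberg method over 9 tests. Class code was tested on simulated data. The members, gene lists and rules were chosen with earlier results of these data known. Named genes were Nkx2-1, Prdm16, Mecom, the PRDM and H3K4 methylation genes, the 8 genes of highest PRDM16 percentile with both or with PRDM16 only, the 5 widest with both or with H3K4me3 only, and up to 2 per class and list. Some genes under this rule are not reported here. Other genes were named after their values were seen. Computations used numpy 2.4.6, pandas 2.3.3, scipy 1.17.1 and matplotlib 3.10.9 under Python 3.11.15.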

Additional observations from a re-analysis of the deposited data

How the results depend on the processing

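The wider H3K4me3 at genes with both kept its direction under the 17 alternatives run for it (438 to 629 bases). So did the H3K4me3 percentile under 17 (9.62 to 24.9 points), the share of peaks at gene ends under 11 (−55.6 to −30.6 points) and the peak width under 8 (−1018 to −457 bases). With libraries paired by replicate number (the replicate block), the share differed by −50.2 points and the width by −1018 bases, each with an exact p of 0.5, the smallest for 2 pairs. The numbers are not known to mark shared cells.

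PRDM16 stringency moved most other values. At a −log10 q of at least 2, at least 5, and with the 20000 strongest peaks per library, genes with both numbered 7430, 4224 and 4814. Those with PRDM16 only numbered 329, 101 and 164, and those with H3K4me3 only 4378, 7584 and 6994. The overlap of H3K4me3 regions at gene ends was 60.9%, 34.1% and 39.3%, the Spearman correlation 0.115, 0.0089 and 0.0954, and the PRDM16 percentile difference between genes with both and with PRDM16 only 4.56, −0.14 and 1.74 points. The cause was not tested. Leaving out 1 library gave 9436 to 11181 genes with both, 874 to 2246 with PRDM16 only, 627 to 2126 with H3K4me3 only, an overlap of 79.8% to 92.6%, a correlation of 0.202 to 0.269 and a PRDM16 difference of 15.2 to 30.8 points; the high counts of PRDM16 only (1628 and 2246) came from single PRDM16 libraries. The correlation was 0.165 with the percentiles of PRDM16 replicate 2.

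Genes with no neighbouring end within 2 kb numbered 5213 with both and 1286 with H3K4me3 only, since fewer genes enter. PRDM16 only held 1326 genes within 5 kb, 462 with 5′ ends and 442 with RefSeq starts, the last added after seeing the data. The PRDM16 difference was 15.1 points with H3K4me3 in all 3 libraries, 15.1, 14.0 and 14.2 within 0.5, 2 and 5 kb, 16.1 with 5′ ends, 17.2 with RefSeq starts, 14.3 without neighbours and 12.7 with regions of at least 200 bases, where the overlap was 77.7%. The number of libraries limits every comparison, since no test here could reach 0.05.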

Other observations

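The sex chromosomes entered the comparisons above only as 1 of the processing alternatives. Of 386 genes on the X chromosome with an H3K4me3 region at an end, 59.1% also had PRDM16, against 74.9% to 84.9% (median 82.2%) on the 19 autosomes. The classes of the 966 X-linked genes were 228 with both, 18 with PRDM16 only, 158 with H3K4me3 only and 562 with neither. Median H3K4me3 width on the X chromosome was 1502.5 bases. The sex of the pooled fetuses is not given in the labels.

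Among X-linked genes of the lists, the demethylase genes Kdm5c and Kdm6a had H3K4me3 only, with regions of 2531 and 3835 bases, while Phf8, another demethylase gene, had both. Hcfc1, which encodes a partner of SET1 and MLL complexes, had both, with PRDM16 folds of 7.68 and 2.53 and an H3K4me3 region of 4132 bases. Slc6a14, an amino acid transporter of the AT2 list, had both, with folds of 4.2 and 4.2. Syn1, a neuronal synapse gene, had PRDM16 only, with 3.23 and 2.33. Of 256 genes on the Y chromosome 4 had H3K4me3, and Kdm5d was one of those without PRDM16.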
